A study of Homo sapiens with 13 samples.

Results

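The expressed ZNF zinc finger genes were followed in DLD-1 cells, a long-used human colorectal adenocarcinoma line, after knockdown of SOX9 or of Y14. Members were the gene symbols made of ZNF, a number and at most 1 further letter, with a mean normalised read count of at least 300 in both deposited comparison tables. Of 525 such symbols among 23886 in the tables, 266 were members. The mean over all libraries chose them, so their levels are a description. All 13 samples received 50 nM of small interfering RNA (siRNA) and were harvested 72 h later, and RNA was selected by its poly(A) tail. The siSOX9 group held 3 samples of experiment 1 and 1 of experiment 2. The siY14 group held 2 samples with each of 2 siRNAs, numbered 9 and 10, all of experiment 3, and the authors' deposited table pools them. The siCtrl samples, with a control siRNA, were 2 of experiment 1 and 1 of experiment 2 for siSOX9, and 2 of experiment 3 for siY14. The tables share no control sample. All groups are the same line, and nothing in the labels says whether samples came from separate cultures, so p-values cover the spread between these samples alone, and that spread may be technical.

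ZNF genes encode C2H2 zinc finger proteins, in which each finger is a short fold held by a zinc ion and a row of fingers reads a stretch of DNA or RNA. In many of them a KRAB domain at the amino end recruits TRIM28, which brings SETDB1 and heterochromatin proteins and silences transposable elements and genes. Many KRAB zinc finger genes arose by repeated duplication and lie in clusters on chromosome 19. SOX9, a DNA-binding protein of the SOX family, is active at the base of intestinal crypts. Y14, encoded by RBM8A, is a core part of the exon junction complex, a set of proteins left on spliced mRNA and takes part in splicing, export and nonsense-mediated decay.

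The promoters of 3 members that neighbour each other on chromosome 19 and were lower with siSOX9 are shown because long stretches of them align, and those of the 2 members with the largest increases past the threshold with siY14 are shown beside them. Each is the 250 bases before the start of transcription, 5′ to 3′ on the gene's strand, from RefSeq (build GRCh38.p14), which gave a promoter for 227 of the 266 members. In the first 3, capitals mark the 15 bases TGTCCAATCAGGCAC, the longest run that all 3 hold, and in the last 2 capitals mark CG dinucleotides. The marked run follows the stretch tgggctgggaac in ZNF254 and ZNF91 but precedes it in ZNF675, so it is not the same aligned site there. In ZNF675 that stretch is followed by the unmarked cgtccaatcaggcac. The ZNF254 promoter is chr19:24086937-24087186 (plus strand), that of ZNF91 chr19:23395472-23395721 (minus strand) and that of ZNF675 chr19:23687213-23687462 (minus strand). The ZNF628 promoter is chr19:55476367-55476616 (plus strand) and that of ZNF408 chr11:46700781-46701030 (plus strand).
ZNF254: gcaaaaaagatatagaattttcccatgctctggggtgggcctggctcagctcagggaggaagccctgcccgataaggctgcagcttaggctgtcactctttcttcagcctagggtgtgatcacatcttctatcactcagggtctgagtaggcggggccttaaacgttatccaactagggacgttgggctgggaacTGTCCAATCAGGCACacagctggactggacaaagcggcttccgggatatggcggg
ZNF91: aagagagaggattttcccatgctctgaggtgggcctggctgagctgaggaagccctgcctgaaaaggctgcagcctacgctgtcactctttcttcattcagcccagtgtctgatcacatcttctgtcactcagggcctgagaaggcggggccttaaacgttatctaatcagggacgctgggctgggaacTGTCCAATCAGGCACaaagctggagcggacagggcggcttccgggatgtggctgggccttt
ZNF675: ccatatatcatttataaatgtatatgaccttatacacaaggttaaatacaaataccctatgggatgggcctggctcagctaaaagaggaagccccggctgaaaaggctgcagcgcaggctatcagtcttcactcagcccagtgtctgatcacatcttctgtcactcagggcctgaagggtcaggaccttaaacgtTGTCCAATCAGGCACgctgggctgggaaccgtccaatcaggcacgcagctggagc
ZNF628: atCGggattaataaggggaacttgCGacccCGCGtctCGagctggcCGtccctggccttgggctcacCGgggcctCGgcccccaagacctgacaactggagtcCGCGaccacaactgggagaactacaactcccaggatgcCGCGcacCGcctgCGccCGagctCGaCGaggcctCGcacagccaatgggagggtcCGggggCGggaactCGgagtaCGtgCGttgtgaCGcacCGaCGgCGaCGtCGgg
ZNF408: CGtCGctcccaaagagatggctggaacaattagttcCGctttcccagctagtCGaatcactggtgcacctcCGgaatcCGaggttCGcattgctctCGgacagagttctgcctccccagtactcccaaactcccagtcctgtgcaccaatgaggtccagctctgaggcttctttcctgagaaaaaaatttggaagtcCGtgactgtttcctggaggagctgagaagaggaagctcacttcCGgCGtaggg

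In a local alignment, the promoters of ZNF91 and ZNF254 had 214 identical bases in 248 aligned columns (86.3%). Those of ZNF91 and ZNF675 had 168 in 199 (84.4%), and those of ZNF675 and ZNF254 had 160 in 194 (82.5%). The 15-base run stood in 6 of 27305 promoters of the same length (0.022%) on either strand, and 4 of these belong to members. It contains CCAATCAG, a CCAAT box with its flank, which stood in 33 of 227 member promoters (14.5%) and in 3.98% of all promoters. The words ACAAAG and ACAATG, which resemble sites bound by SOX proteins in general, were searched on both strands. ZNF254 and ZNF91 each held 1 of these words and ZNF675, ZNF628 and ZNF408 held neither. ACAAAG stood in 9.25% of member promoters and 13.7% of all promoters, and ACAATG in 7.93% and 9.45%. The ZNF628 promoter held 29 CG dinucleotides and that of ZNF408 held 11, against a median of 18 over member promoters and 11 over all promoters.

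Coding sequences from GENCODE release 29 were found for 261 members. A pattern for C2H2 fingers matched between 0 and 31 times per protein, with a median of 10, and 6 members had no match. A KRAB A box pattern was found in 141 members and not in 120, and a SCAN domain pattern in 18. Each pattern is short and was searched in a single coding sequence per gene. Members without a match may therefore still hold the domain. Chromosome 19 carried 95 members, of which 73 had the KRAB pattern. The members' transcripts had a median GC content of 44.9% (n = 263), against 48.5% for all 9399 genes with a mean of at least 300 in both tables and a transcript in the annotation.

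Reads per library were recovered from the deposited arm means for 215 members of the siSOX9 table and 180 members of the siY14 one. They have no sample name, so letters rank them within an arm, with a the deepest. By estimate, siSOX9 and siY14 libraries held 24.8 to 184 M and 49.5 to 71.6 M counts, and the siCtrl libraries of experiment 3 held 47.2 and 67.1 M. The deepest siCtrl library of experiments 1 and 2 held 179 M. SOX9 had a mean normalised count of 9067 with siSOX9, against 24468 with siCtrl (adjusted p = 1.40e-04, authors' deposited table). RBM8A is listed at 0 in both of the authors' deposited tables, so the knockdown of Y14 could not be checked. Libraries stood apart in both tables: library a of siSOX9 and library a of its siCtrl deviated from their arm means together (Pearson's r = 0.919 across 4221 genes, which are not independent replicates). Each arm holds 1 sample of experiment 2, and no column ties the deepest libraries to an experiment. The siY14 libraries formed the pairs a with c (r = 0.938) and b with d (r = 0.930), and no column ties a pair to an siRNA. All 8 colon epithelial markers were listed with reads, at summed means of 297257 with siSOX9, 316347 with siY14 and 344057 and 428181 with siCtrl. With siSOX9, KRT20 was higher and VIL1 and ELF3 lower (log2 fold changes of 1.15, -1.19 and -0.60), and with siY14, CDH1, KRT20 and VIL1 were lower (-1.21, -2.12 and -0.57), all past the threshold in the authors' deposited table. The immune markers PTPRC and CD3E, the fibroblast markers COL1A2, DCN and LUM and the endothelial marker PECAM1 had means under 1, while CD14, COL1A1 and VWF ran from 18.3 to 99.9. COL1A1 was higher with siSOX9, at 82.6 against 34.1 with siCtrl (adjusted p = 0.0217, authors' deposited table). The part of these markers in the members' values was not tested.

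Member levels spanned a wide range per transcript length. The median member had 269 normalised counts per kb for siSOX9 with its siCtrl libraries and 336 for siY14 with its own, and the extremes were 33.2 and 8460 per kb in the first and 49.0 and 10212 in the second. ZNF207, which binds microtubules and the checkpoint protein BUB3, stood highest per kb in both tables, with mean normalised counts of 16381 with siSOX9 and 15764 with siCtrl in the authors' deposited table, and of 18130 with siY14 and 22103 with siCtrl. Its adjusted p was 1.00 and 0.315. ZNF638, an RNA-binding protein that also silences unintegrated retroviral DNA, had log2 fold changes of -0.06 with siSOX9 and -0.02 with siY14 in the authors' deposited table. ZNF598, a ubiquitin ligase that senses collided ribosomes, had -0.28 with siSOX9 and 0.47 with siY14, neither past the threshold in the authors' deposited table. ZNF146 had -0.09 and 0.20, ZNF511 had -0.13 and 0.33, ZNF24 had -0.37 and -0.36 and ZNF106 had 0.03 and 0.18 in the authors' deposited table, for siSOX9 and siY14 in that order. None of these 7 most abundant members by mean count passed an adjusted p of 0.05 in either table.

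With siSOX9, few members passed the authors' test. At an adjusted p of at most 0.05 in the authors' deposited table, 1 of 266 members was higher and 4 were lower, or 0.376% and 1.5%. Among all 9915 genes whose mean reached 300 in both tables, 0.918% were higher and 3.18% lower. The members' median log2 fold change was 0.02, against 0.00 over those genes, and the lower and upper quartiles of the members were -0.10 and 0.14.

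ZNF254, a KRAB zinc finger gene with 13 fingers, fell most. Its normalised counts were 282, 209, 231 and 207 in siSOX9 libraries a to d, against 746, 554 and 581 in siCtrl libraries a to c. No siSOX9 library reached a siCtrl library, and library a was the highest of its arm in both. The log2 fold change was -1.43 (adjusted p = 3.36e-06, authors' deposited table) and -1.42 ± 0.15 (SE) by limma-voom. ZNF91, with 31 fingers, is known to silence SVA retrotransposons and binds them through its long finger array. It had 534, 396, 403 and 443 normalised counts in siSOX9 libraries a to d, against 892, 686 and 729 in siCtrl libraries. These groups did not overlap, and the log2 fold change was -0.79 (adjusted p = 0.00837, authors' deposited table).

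ZNF618, which has 4 fingers and is known to bind the chromatin protein UHRF2, fell to a mean of 1012 ± 116 normalised counts with siSOX9 (SD, n = 4), against 1986 ± 229 with siCtrl (SD, n = 3). Its siSOX9 libraries a to d had 985, 1060, 1137 and 864, and its siCtrl libraries had 1966, 2224 and 1766. The log2 fold change was -0.97 (adjusted p = 1.01e-05, authors' deposited table). ZNF395, which lacks a KRAB pattern and has been linked to the response to hypoxia, fell to 1473 ± 121 with siSOX9 (SD, n = 4), against 2626 ± 71.7 with siCtrl (SD, n = 3). Its log2 fold change was -0.83 (adjusted p = 1.96e-04, authors' deposited table). ZNF641, a KRAB gene with 5 fingers, rose in the siSOX9 cells. It had 1519.5, 1520.5, 1476 and 1502 normalised counts in siSOX9 libraries a to d, against 994, 1057 and 1021 in siCtrl libraries, and its SDs of 20.8 with siSOX9 and 31.4 with siCtrl were the smallest of the 5 genes. Its log2 fold change was 0.55 (adjusted p = 0.0473, authors' deposited table). All 5 passed an adjusted p of 0.05 in each of 17 limma fits on recovered reads, which used all libraries, left out each library in turn or both deepest libraries together, made these a block, or changed the scaling, filter or model.

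**Figure D1:**
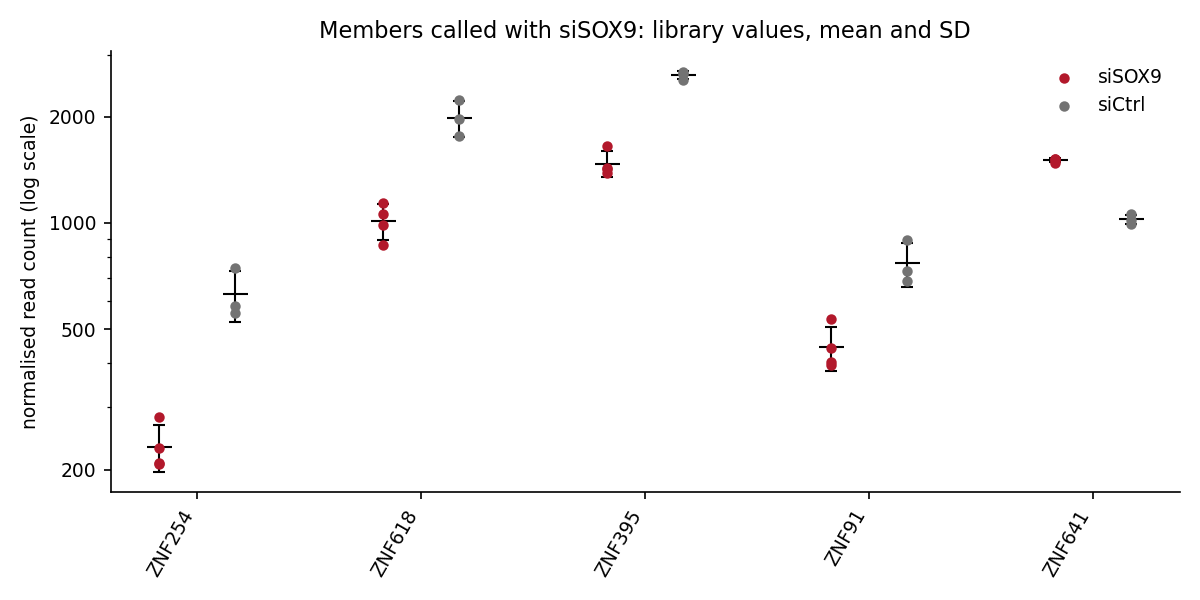
Normalised read counts (log scale) of the 5 expressed ZNF genes past an adjusted p of 0.05 with siSOX9, with a point per recovered library and a bar for the mean ± SD (siSOX9 n = 4, siCtrl n = 3). In all 5 genes the siSOX9 libraries stand clear of the siCtrl libraries, below them in 4 genes and above them in ZNF641.

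The limma-voom test on recovered reads passed more members than the authors' test, 9 higher and 14 lower of 215, where 7.69% of all 7922 genes tested were higher and 10.5% lower. These 7922 genes have means of at least 10, and 4574 of them reached 300 in this table. Shares over them thus include many genes of lower level than any member. Among the members that limma-voom added were ZNF35, with a log2 fold change of 0.45 ± 0.07, and ZNF600, with 0.46 ± 0.08 (SE, limma-voom). Another was ZNF281, a regulator of pluripotency and of epithelial to mesenchymal transition, with -0.50 ± 0.09 (SE, limma-voom). Libraries of siSOX9 and of siCtrl kept apart for 41 of the 215 members (19.1%), 22 with siSOX9 above and 19 with it below. They kept apart for 29.7% of the 4221 recovered genes whose mean reached 300 in both tables. The members' median by library, as log2 over the siCtrl mean, was 0.12 in siSOX9 library a and -0.02, -0.01 and 0.02 in libraries b, c and d. It was 0.06 in siCtrl library a and -0.03 and -0.02 in siCtrl libraries b and c. Library a thus stood highest in both arms, and without siSOX9 library a the members' median log2 fold change was -0.04 by limma-voom, against 0.03 with it. Without both deepest libraries, 29 members were higher and 26 lower of 215 (13.5% and 12.1%), where 11.8% of the 7922 genes were higher and 16.4% lower. With these libraries kept and made a block, 62 members were higher and 34 lower (28.8% and 15.8%), where 22.7% of the genes were higher and 23.4% lower. All 23 members called by limma-voom without the block were called with it in the same direction.

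ZNF91, ZNF675 and ZNF254 belong to a run of 24 ZNF symbols on chromosome 19, from ZNF430 to ZNF254 in RefSeq order. The run was picked after its values were seen, so it is described and not tested. It holds 3 members and 7 further symbols with a mean of at least 10 in both tables. With siSOX9, the log2 fold change of all 10 was below 0, from -1.43 to -0.15 with a median of -0.57, in the authors' deposited table. The 92 members on chromosome 19 outside the run had a median of 0.06, and the lowest of them was -0.37. Those 92 have means of at least 300, which the 7 further symbols did not reach, so the sets are unlike in level. Values spread more at low means. The 180 ZNF symbols with reads under 300, on any chromosome, had quartiles of -0.33 and 0.27 with siSOX9 and a lowest value of -3.50. ZNF714, with a mean of 285 just under the minimum, had 207, 166, 182 and 201 normalised counts in siSOX9 libraries a to d, against 486, 400.4 and 355 in siCtrl libraries. The authors' deposited table gives it an adjusted p of 3.36e-06, and the groups did not overlap. ZNF675 had 316, 305, 293 and 288 normalised counts in siSOX9 libraries, against 475, 486 and 347 in siCtrl libraries. All siSOX9 libraries lay below the siCtrl libraries for it too, although the authors' deposited table gives an adjusted p of 0.101 and limma-voom one of 0.0129. For 7 of the 10 genes the siSOX9 libraries all lay below the siCtrl libraries. The share of all genes with siSOX9 below in this way is not given here. In either direction, libraries kept apart for 29.7% of the 4221 recovered genes whose mean reached 300 in both tables, which the 7 further symbols did not reach.

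With siY14, the log2 fold changes of the 10 genes ran from -0.35 to 0.46 with a median of 0.05, and 0 passed the threshold in the authors' deposited table, where 1 had an unadjusted p of at most 0.05. By limma-voom ZNF675 was higher (0.45 ± 0.10, adjusted p = 0.0341) and ZNF91 lower (-0.31 ± 0.07, adjusted p = 0.0328), as was ZNF714 (-0.34 ± 0.09, adjusted p = 0.0451). ZNF254 had 1466, 1339, 1326 and 1266 normalised counts in siY14 libraries a to d, against 1435 and 1361 in siCtrl libraries, so the groups overlapped. The difference of the knockdown effects, siY14 minus siSOX9, was 1.38 ± 0.19 on the log2 scale for ZNF254 (adjusted p = 4.34e-04) and 1.01 ± 0.17 for ZNF675 (adjusted p = 0.00178) in a joint limma-voom model of all 13 libraries. For ZNF91 it was 0.48 ± 0.18 with an adjusted p of 0.0759, and 0.45 ± 0.09 with one of 0.00468 where both deepest siSOX9-table libraries formed a block. Genes of the run have near-identical stretches, and whether reads were counted to 1 gene where they match several is not given in the sources used here, so the share of each gene is uncertain. Promoters were given for 8 of the 10 genes, and their 28 pairs were 80.1% to 92.3% identical over 171 to 251 aligned columns. Outside the run, the member promoters that aligned best with that of ZNF254 belonged to ZNF92, ZNF107, ZNF138 and ZNF680 on chromosome 7. Their alignment scores against it were 154, 143.5, 137.5 and 131.5, above the 125 of ZNF675 and below the 181 of ZNF91, so the likeness is not particular to the run. With siSOX9 these 4 had log2 fold changes of -0.01, -0.14, -0.13 and 0.21, in that order, none past the threshold in the authors' deposited table.

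**Figure D2:**
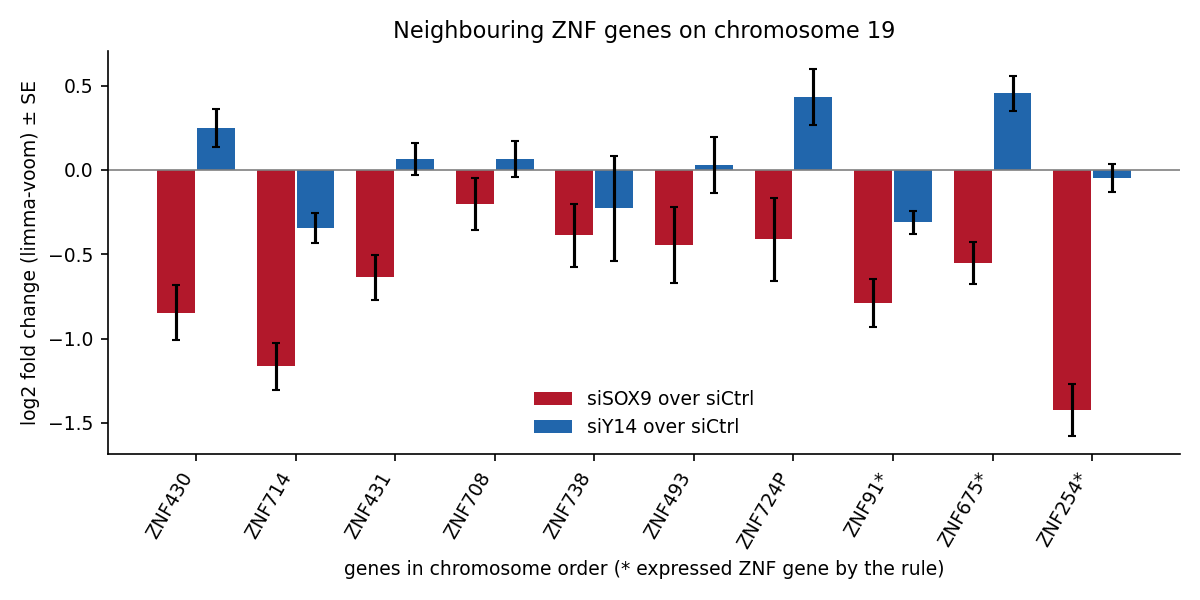
Log2 fold changes ± SE by limma-voom of 10 ZNF genes in their order along chromosome 19, siSOX9 over siCtrl in red and siY14 over siCtrl in blue, with asterisks on the 3 expressed ZNF genes of the rule. All 10 red bars point down, to -1.42 at ZNF254, while the blue bars lie between -0.34 and 0.45.

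With siY14, more members were higher than lower. Per the authors' deposited table, 18 members (6.77%) were higher and 6 (2.26%) lower at an adjusted p of at most 0.05, where 5.71% of those 9915 genes were higher and 7.60% lower. The members' median log2 fold change was 0.15, against -0.01 over those genes, and 69.5% of the members lay above 0, against 48.4%. Of the members, 0 passed the authors' adjusted p in both tables, and 6 had an unadjusted p of at most 0.05 in both. By limma-voom 3 (ZNF91, ZNF675 and ZNF76) of the 172 members in both fits passed in both. With the block of the deepest siSOX9-table libraries they were 13. That block raised the calls with siSOX9 over all 7922 genes too, from 7.69% higher and 10.5% lower to 22.7% and 23.4%. The share of all genes that passed in both tables is not given here, so 3 and 13 have no baseline.

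ZNF628, with 16 fingers and no KRAB pattern, had the largest increase past the threshold. It had 323, 532, 350.3 and 484 normalised counts in siY14 libraries a to d, against 203 and 199 in siCtrl libraries. Every siY14 library lay above both siCtrl libraries, with b and d the higher pair. Its log2 fold change was 1.07 (adjusted p = 0.0282, authors' deposited table). ZNF408, a gene mutated in inherited disease of the retina and its vessels, had 1136, 1749, 1206 and 1697 in siY14 libraries, against 729 and 730.2 in siCtrl libraries. Libraries b and d were again the higher pair, and its log2 fold change was 0.99 (adjusted p = 0.0240, authors' deposited table). ZNF219, whose mouse counterpart acts as a partner of Sox9 in cartilage, had 649.95, 860.3, 640.3 and 914 in siY14 libraries, against 412 and 421 in siCtrl libraries, a log2 fold change of 0.88 (adjusted p = 0.0122, authors' deposited table). With siSOX9 the authors' deposited table gives the same gene a log2 fold change of -0.09.

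ZNF473, which takes part in the 3′ end processing of histone mRNA, had a mean normalised count of 4924 with siY14, against 2541 with siCtrl, in the authors' deposited table, where its adjusted p was 0.0396. ZNF282, a KRAB protein first found by its binding to the repeat of a human retrovirus, had 4437 with siY14 and 2284 with siCtrl, a log2 fold change of 0.96 (adjusted p = 0.0330, authors' deposited table). Both have means too high for recovery of their reads per library. ZNF524 had 535, 750.3, 580.1 and 736 in siY14 libraries a to d, against 340 and 357 in siCtrl libraries, and ZNF428 had 534, 599.6, 537 and 608 against 328 and 326. In both genes the siY14 libraries cleared the siCtrl libraries, and the adjusted p of ZNF428 was 0.00288 in the authors' deposited table. ZNF574 (log2 fold change 0.84), ZNF71 (0.81) and ZNF213 (0.73) complete the 10 largest increases among members past the threshold in the authors' deposited table. ZNF581 had a log2 fold change of 1.12 without passing it (adjusted p = 0.233, authors' deposited table). The other 8 that passed were ZNF74, a KRAB gene of the chromosome 22 region lost in DiGeorge syndrome, with ZNF557, ZNF689, ZNF142, ZNF783, ZNF777, ZNF239 and ZNF45, at log2 fold changes of 0.53 to 0.64 in the authors' deposited table.

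The 6 members that fell with siY14 were ZNF594, ZNF621, ZNF770, ZNF518B, ZNF620 and ZNF706. ZNF621, a KRAB gene on chromosome 3, had 1662, 1325, 1641 and 1375 normalised counts in siY14 libraries a to d, against 2566 and 2495 in siCtrl libraries. Its log2 fold change was -0.75 (adjusted p = 7.32e-04, authors' deposited table), the lowest p of the 24 members that passed. ZNF594 had 826, 485, 755 and 495 in siY14 libraries, against 1147 and 1116 in siCtrl libraries, so that b and d were here the lower pair. ZNF770 had a mean of 5126 with siY14 and 8128 with siCtrl, a log2 fold change of -0.67 per the authors' deposited table. ZNF518B had -0.52, ZNF620, which neighbours ZNF621, had -0.52, and ZNF706, which encodes a protein of 76 residues, had -0.50 in the authors' deposited table. With siSOX9 these 6 had log2 fold changes from -0.29 to 0.21, none past the threshold in the authors' deposited table.

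**Figure D3:**
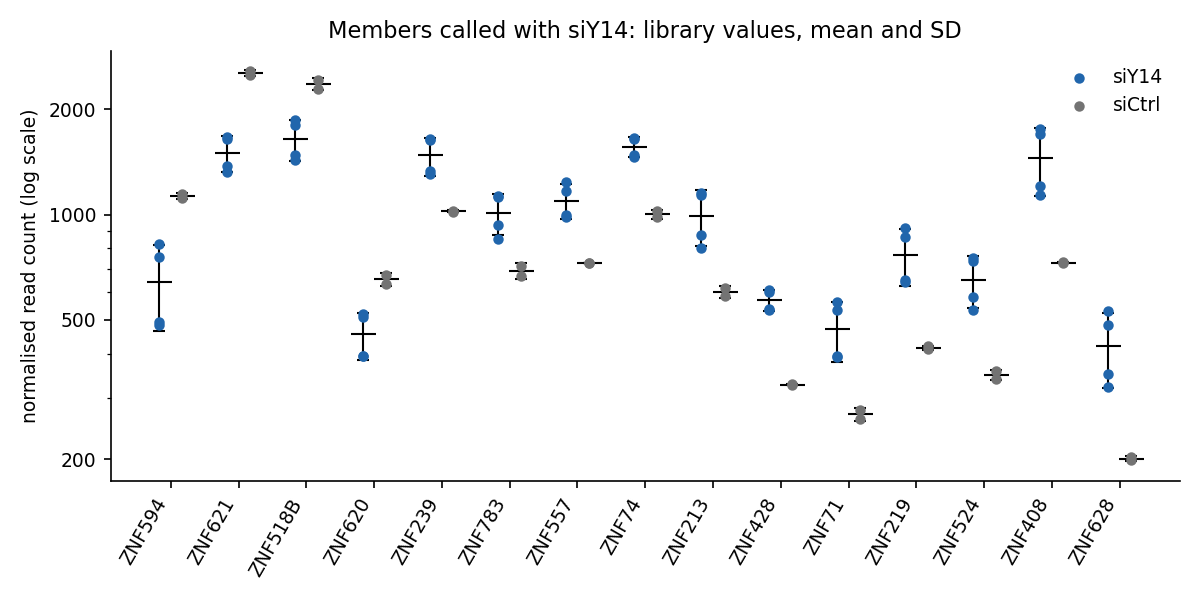
Normalised read counts (log scale) of the 15 expressed ZNF genes past an adjusted p of 0.05 with siY14 whose reads per library were recovered, with a point per library and a bar for the mean ± SD (siY14 n = 4, siCtrl n = 2). No siY14 library overlaps the siCtrl libraries in any of the 15 genes, and the 4 siY14 points fall into pairs, as at 1749 and 1697 against 1136 and 1206 for ZNF408.

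By limma-voom on recovered reads, 21 members were higher and 11 lower of 180 with siY14, where 7.66% of all 7087 genes tested were higher and 9.81% lower. These 7087 genes have means of at least 10, and 3750 of them reached 300 in this table. Shares over them thus include many genes of lower level than any member. Of the 15 recovered members called in the authors' table, 13 also passed by limma-voom, and ZNF620 (adjusted p = 0.0511) and ZNF783 (adjusted p = 0.0539) did not. All siY14 libraries stood above both siCtrl libraries for 77 of 180 members (42.8%) and below them for 39 (21.7%), where the shares over 3568 recovered genes were 32.2% and 33.9%. The members' median by library, as log2 over the siCtrl mean, was 0.06, 0.20, 0.06 and 0.21 in siY14 libraries a to d and 0.01 and -0.01 in siCtrl libraries. Over the 3568 genes it lay between -0.02 and 0.01 in every library. With 2 siCtrl libraries the calls rest on few samples: without either siCtrl library limma-voom called 0 members and 0 genes in all, although 21 higher and 11 lower members without library a, and 23 and 14 without library b, had an unadjusted p of at most 0.05. In those fits the lone siCtrl library is assumed to vary like the siY14 libraries. Without siY14 library b, 6 members were higher and 1 lower, where 156 of the 7087 genes were higher and 304 lower. Without library d they were 4 and 1, beside 101 and 227 genes, and without library a 34 and 13, beside 774 and 844 genes.

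The siY14 values moved with the GC content of the transcript, in members as in other genes. By quartile group of the members' GC content, from the lowest to the highest, the members' median log2 fold change was -0.03, 0.08, 0.19 and 0.41 with siY14. Other genes of the same GC ranges had -0.30, -0.18, -0.04 and 0.24, so that the members' median was higher in each group. Of the 18 members that rose, 14 lay in the highest group, above 53.4% GC. How many other genes of each group were called is not given here, so the 14 have no baseline. Pearson's r between GC and the log2 fold change was 0.548 across 263 members and 0.567 across 9136 other genes, which share libraries and are not independent. With siSOX9 the members' groups had medians of 0.03, 0.05, 0.02 and -0.03. In the highest group the 48 recovered members had medians of 0.30, 0.53, 0.32 and 0.54 in siY14 libraries a to d. With the trend over GC and transcript length removed, limma-voom called 25 members higher and 3 lower, and the members' median with siY14 was 0.20. The share of all genes called in that fit is not given here, so these counts have no baseline. That trend was taken over all genes, and single values shrank with it, to 0.55 for ZNF628 (adjusted p = 0.0567), 0.38 for ZNF213 (adjusted p = 0.0611) and 0.34 for ZNF219 (adjusted p = 0.0454). ZNF594 and ZNF518B also lost their call, at -0.65 and -0.26, while ZNF408 at 0.72 and ZNF621 at -0.57 kept it. Whether GC content has a part in the single changes was not tested.

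**Figure D4:**
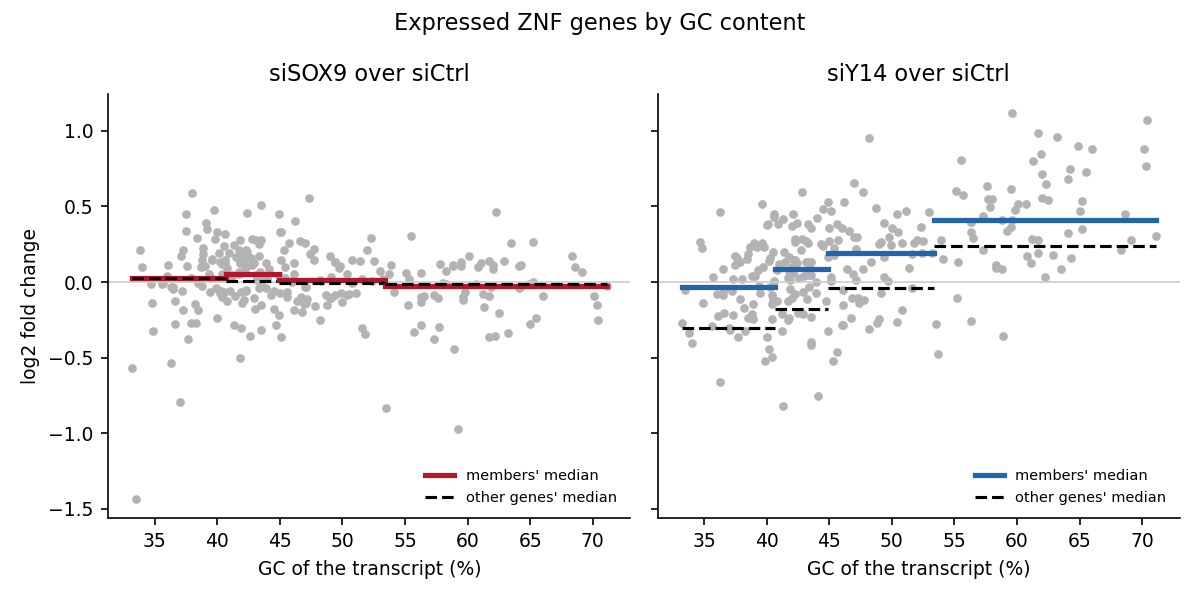
Log2 fold change of the expressed ZNF genes against the GC content of their transcripts in percent, siSOX9 over siCtrl on the left and siY14 over siCtrl on the right. Each grey point is a gene, coloured bars give the members' median and dashed lines the other genes' median in each quartile group of the members' GC content. With siY14 the members' medians climb to 0.41 above the other genes' 0.24, and with siSOX9 both stay between -0.03 and 0.05.

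Members were also grouped by domain, finger number and chromosome. With siY14 the median log2 fold change was 0.14 in members with a KRAB pattern and 0.16 in those without, and 0.19 on chromosome 19 and 0.14 elsewhere. The 18 members with a SCAN pattern had a median of 0.24 with siY14 and -0.04 with siSOX9. On chromosome 19, 8 of 95 members (8.42%) rose with siY14 and 0 fell in the authors' deposited table. By the authors' test 1 of the 95 was lower at an unadjusted p of at most 0.05, and limma-voom called 3 of 78 lower. Elsewhere 10 of 168 rose (5.95%) and 6 fell (3.57%). Over all 9915 genes with a mean of at least 300 in both tables, 5.71% rose and 7.60% fell. The differences between these shares were not tested. Members with at most 6 fingers had a median of 0.13, those with 7 to 12 had 0.16 and those with at least 13 had 0.14 with siY14. With siSOX9 the medians of the KRAB, chromosome and finger number groups lay between -0.01 and 0.05.

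The knockdown effects were set against each other in the joint limma-voom model, which had 172 members. The siY14 effect was greater than the siSOX9 effect for 20 members and smaller for 6, where 8.41% of all 6508 genes were greater and 9.50% smaller. With the block of the deepest siSOX9-table libraries it was greater for 28 members and smaller for 16, where 12.7% of the genes were greater and 14.3% smaller. The 6508 genes were tested from a mean of 10 upward in both tables, against 300 for members, so these shares are not from genes of like level. After ZNF254, the largest differences were 1.30 ± 0.27 for ZNF628 (adjusted p = 0.00545), 1.06 ± 0.24 for ZNF408 (adjusted p = 0.00814) and 1.01 ± 0.17 for ZNF675, on the log2 scale with SE. The opposite sign was held by ZNF641 with -0.67 ± 0.12 (adjusted p = 0.00205), ZNF620 with -0.74 ± 0.22, ZNF169, ZNF711, ZNF260 and ZNF655. Across all 266 members the log2 fold changes of siY14 and siSOX9 had a Pearson's r of 0.0949, against 0.055 across 9649 other genes.

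**Figure D5:**
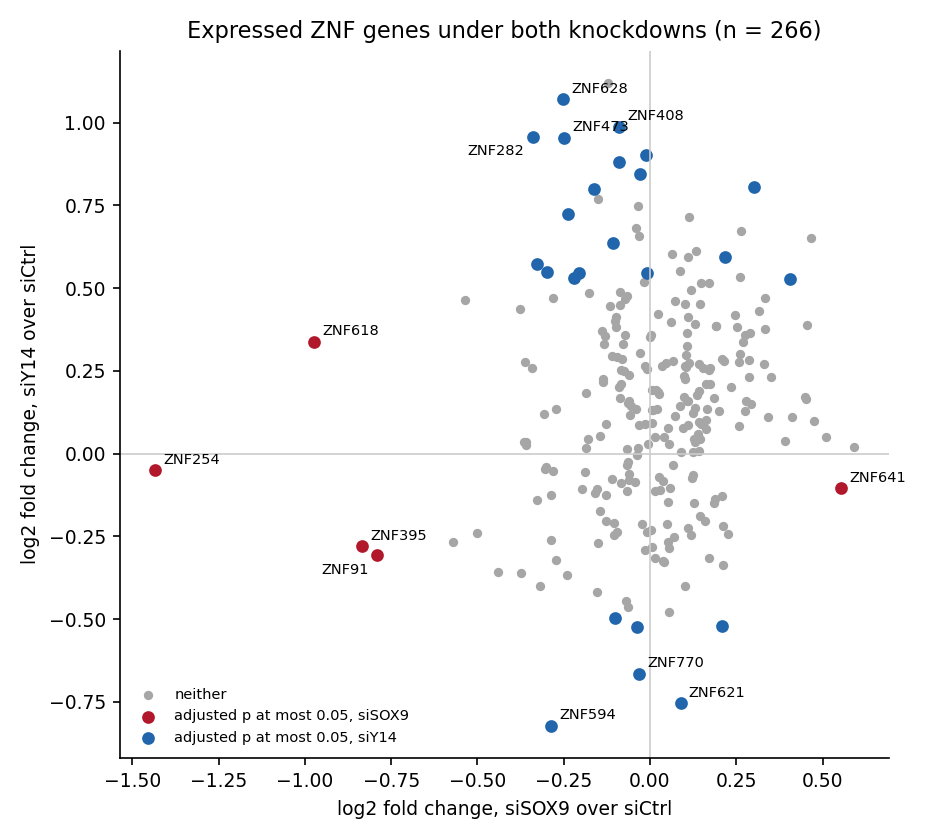
Log2 fold change of the 266 expressed ZNF genes with siY14 over siCtrl (vertical axis) against siSOX9 over siCtrl (horizontal axis), with genes past the authors' adjusted p of 0.05 in red for siSOX9 and blue for siY14. The 5 red and 24 blue points are different genes, and ZNF254 lies at -1.43 on the horizontal and -0.05 on the vertical axis.

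Of the proteins that work with or beside KRAB zinc fingers, 21 were listed. With siSOX9 0 of them passed the threshold in the authors' deposited table, and 1 had an unadjusted p of at most 0.05. Reads of 1 of them were recovered there, and limma-voom did not call it. With siY14, 2 fell (9.52%) and 0 rose, where 7.60% of all 9915 genes were lower. TRIM24, a bromodomain protein and relative of TRIM28, had a mean normalised count of 2447 with siY14, against 4254 with siCtrl, a log2 fold change of -0.80 (adjusted p = 2.56e-04, authors' deposited table). TRIM33, another relative, which acts in TGF-beta signalling, had 5436 with siY14 and 8981 with siCtrl, a log2 fold change of -0.72 (adjusted p = 9.57e-04, authors' deposited table). TRIM28 itself had 37514 with siY14 and 28353 with siCtrl, and its adjusted p was 0.128 in the authors' deposited table. SETDB1, the histone methyltransferase of the complex, had -0.02 on the log2 scale of the authors' deposited table with siY14.

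Other zinc finger families are given for comparison. The 180 ZNF symbols with reads under the mean of 300 had a median log2 fold change of 0.16 with siY14, with 4 called higher and 2 lower, and -0.01 with siSOX9 in the authors' deposited tables. With siY14 the 33 ZBTB genes, which pair fingers with a BTB domain, had a median of -0.08, and the 12 ZSCAN genes had 0.25. The 11 KLF genes, which encode Krüppel-like activators and repressors, had -0.38 with 1 higher and 3 lower. The members nearest above the minimum were ZNF324B, ZNF438 and ZNF117, with lower means of 302, 308 and 310.03. ZNF182, ZNF764 and ZNF827 were nearest below it, with lower means of 299.7, 298 and 298. In DLD-1 samples as a whole, fewer cells expressing a gene and less RNA per cell cannot be told apart.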

How the data were processed

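Polyadenylated RNA of 13 samples was sequenced, and the authors deposited 2 comparison tables. Per the submitters' processing notes, the tools were DESeq, HTSeq, TopHat2, HISAT2, Bowtie and SAMtools on build hg19, and their settings, including strand, are not given in the sources used here. Per the file headers, the deposited means are a normalised signal, made by scaling each library's reads with a size factor. Beside them the deposited tables give the fold (ratio of arms) and log2 fold change, and raw and adjusted p-value. The main results are the authors' values at an adjusted p of 0.05, adjusted over the 18747 (siSOX9) and 17706 (siY14) genes with reads.

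Whole reads per library were recovered from the 15 significant digits of the arm means for 69.4% and 64.1% of genes with reads. Of means above 2000, 3.50% and 0.457% were recovered, and sets of reads with a spread of more than 20% to 40% within an arm were refused at higher means, so SDs there can be too small. For genes with means from 10 upward, limma 3.58.1 (voom, R 4.3.3) tested the recovered reads with Benjamini-Hochberg adjustment. The recovery and the limma fits were tested on simulated data. Promoters were aligned with Biopython 1.88. GC content and length came from GENCODE release 29.

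The members and lists were chosen with earlier results of these data known. Named were the members called in a table, up to 10 per direction by size, the 5 of highest mean per table, the 3 nearest each side of the minimum, and partner genes called. Also named, after their values were seen, were the neighbours on chromosome 19, the remaining called members, ZNF581 and the members of the joint model. The same holds for ZNF35, ZNF600 and ZNF281. Alternatives were other thresholds, minimums, scalings, models, left-out libraries and a block of the deepest libraries. Of the cell type markers, 1 is not reported here.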

Additional observations from a re-analysis of the deposited data

How the results depend on the processing

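Counts of called members depended on the test. For the other thresholds, minimum means, scalings, filters, pseudocounts and the removal of the GC and length trend, the share over all genes is not given here. Those counts therefore do not tell a change in the members from a change in all genes. With siSOX9, where 1 member was higher and 4 lower, an adjusted p of 0.10 gave 2 higher, 0.01 gave 0 higher by the authors' DESeq test (7 had an unadjusted p of at most 0.05, and limma-voom called 9 at 0.05), and a minimum mean of 1000 gave 2 lower. Higher and lower members were 9 and 14 by limma-voom, 7 and 13 with TMM scaling, 8 and 13 with RLE scaling, 6 and 11 without a filter, 11 and 15 by limma-trend with a pseudocount of 1 or 0.1, 13 and 15 with 10, and 13 and 19 with the GC and length trend removed. Without both deepest libraries they were 29 and 26, and with these as a block 62 and 34, alternatives added after seeing the data. Leaving out 1 library gave 6 to 14 higher (2.79% to 6.51%) and 9 to 22 lower (4.19% to 10.2%), and medians from -0.0372 to 0.0728. In the same fits 4.17% to 10.8% of all 7922 genes were higher and 7.38% to 12.5% lower.

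With siY14, where 18 were higher and 6 lower, an adjusted p of 0.10 gave 34 higher, 0.01 gave 2 higher and 1 lower, and a minimum mean of 1000 gave 9 higher. Over the recovered members, added after seeing the data, the authors' test gave 11 higher. Limma-voom gave 21 higher and 11 lower, 13 and 5 without a filter, TMM scaling 36 and 12, RLE scaling 31 and 12, limma-trend 32 and 11 with each pseudocount, and removal of the GC and length trend 3 lower. Leaving out 1 siY14 library gave 4 to 34 higher and 1 to 13 lower, where 1.43% to 10.9% of all 7087 genes were higher and 3.2% to 11.9% lower. Leaving out any 1 library of either arm gave medians from 0.095 to 0.167. The joint model without both deepest siSOX9-table libraries gave 10 members with a smaller siY14 effect, against 6, and with these as a block 16. The cause of these shifts was not tested.

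The members' median kept within the spread between libraries in every alternative run. All 5 members named with siSOX9 kept their call in 17 of 17 limma fits. Of the 11 named with siY14 that were recovered, each kept its direction in 14 limma fits and lost its call in 2 to 12 of them, most often ZNF594 and ZNF620, and all 11 lost it without either siCtrl library. Those 11 come from the members named by size, up to 10 per direction. Of the 15 recovered members that passed the authors' test with siY14, the rest, ZNF783 among them, were not followed through these fits. No paired analysis was possible because recovered libraries carry no replicate number. Depth limits values of lowly counted neighbours such as ZNF738, while members have means of at least 300.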
